A study of Homo sapiens with 6 samples.

Results

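The genes described here encode the proteins of the cytosolic ribosome, measured by RNA sequencing in AF22, a human neural stem cell line of neuroepithelial character derived from induced pluripotent cells. Members were chosen by name: symbols that open with RPL or RPS and a number, with at most the letter A, L or X after it, together with RPLP0, RPLP1, RPLP2 and RPSA. The deposited tables hold 81 such genes among 26485 symbols, 49 of the large and 32 of the small ribosomal subunit. There are 3 control libraries, labelled shControl with wild-type genotype, and 3 knockdown libraries of AF22 cells, for which the labels name BMI1, a Polycomb subunit, and its read-through transcript with COMMD3 as targets. A single line was used in both groups, and the labels do not say how many hairpins were used or whether libraries of a group came from separate cultures, so p-values reflect library-to-library spread, part of which may be technical.

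Each cytosolic ribosome contains 1 copy of nearly every ribosomal protein, so its genes are transcribed at high and matched levels, and a shortage of a single protein stalls assembly of its subunit. The mRNAs of vertebrate ribosomal proteins typically begin with a C followed by an uninterrupted run of C and T bases, the 5' terminal oligopyrimidine (TOP) tract. Through this tract their translation and stability are controlled together by the kinase mTOR and the RNA-binding protein LARP1. In neural stem cells ribosome supply is tied to growth and division, and free RPL5 and RPL11 can bind the ubiquitin ligase MDM2.

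The tract was read from RefSeq start windows (GRCh38.p14, 250 bases before to 50 bases from each annotated start). Of the 81 members, 64 had an entry, with 79 annotated starts. A C at the start followed by at least 4 bases that are each C or T was present at 46 of these 79 starts (58.2%), against 1429 of 35116 starts of all genes (4.07%). Counted by gene, 46 of 64 members (71.9%) carried it, 28 of 39 in the large and 18 of 25 in the small subunit, and the tracts were 5 to 19 bases long. The start regions of the 10 members that were higher in knockdown in the paired test below are shown from 10 bases before to 20 bases from the start, 5′ to 3′ on the coding strand, with the tract in capitals. Where a gene has several annotated starts, the one with the tract is given, and otherwise the last listed.
RPL34, chr4:108620566-108620595, plus strand: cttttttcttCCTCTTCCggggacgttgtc
RPL31, chr2:101002279-101002308, plus strand: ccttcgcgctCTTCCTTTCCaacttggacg
RPL38, chr17:74203668-74203697, plus strand: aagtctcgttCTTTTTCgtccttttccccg
RPL10, chrX:154398367-154398396, plus strand: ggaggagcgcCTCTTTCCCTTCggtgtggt
RPL11, chr1:23691796-23691825, plus strand: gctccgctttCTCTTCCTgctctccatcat
RPL18, chr19:48619159-48619188, minus strand: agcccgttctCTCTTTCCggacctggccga
RPL22, chr1:6199576-6199605, minus strand: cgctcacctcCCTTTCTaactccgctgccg
RPS19, chr19:41860245-41860274, plus strand: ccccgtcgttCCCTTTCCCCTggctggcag
RPL15, chr3:23917122-23917151, plus strand: aaggcattgtgggagtacagctctttcctt
RPS4X, chrX:72277229-72277258, minus strand: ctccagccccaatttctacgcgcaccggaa
The first 8 open with the tract at the start itself. RPL15 and RPS4X have none at an annotated start, although the bases shown for RPL15 end in a run of C and T. The median log2 fold change was 0.20 in the 46 members with the tract at an annotated start. It was also 0.20 in the 17 tested members with an entry and no such tract. A run that opens some bases after the annotated start, as in RPL15, counts as absent here. These sets therefore cannot separate mRNAs with a TOP tract from mRNAs without it.

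The promoter windows were also searched for a pair of other motifs. CCGGAAG, a core bound by ETS factors, lay on either strand in the 300-base window of 27 of 79 member starts (34.2%), of 33 of 85 starts of mitochondrial ribosomal protein genes (38.8%) and of 10.3% of all starts. AAGATGGC, a core bound by YY1, lay in 6 of 79 member starts (7.59%), in 23 of 85 mitochondrial ones (27.1%) and in 2.89% of all. The 17 members without an entry include RPL5, RPL7, RPL8, RPL23, RPL23A, RPL30, RPL37, RPL39L, RPL3L, RPS2, RPS15A and RPS20.

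Total counts ran from 4962745 to 9640349 per library, and knockdown library 2 stood apart from the others on the first principal component (42.0, against -27.2 to 12.2; 46.5% of the variance). BMI1 had means of 87.4 ± 2.35 CPM (control) and 29.2 ± 9.61 CPM (knockdown) (CPM, read counts scaled to a common library total with TMM factors; mean ± SD, n = 3 each), a log2 fold change of -1.61 (edgeR adjusted p 0.153 unpaired and 0.00651 with the library number as a block). The read-through COMMD3-BMI1 had 0 counts in all 6 libraries, controls included, so its knockdown could not be checked. Of 12 neural stem cell markers, 11 passed the filter on low counts, with HES5 at 0, while the neuronal marker RBFOX3, the oligodendroglial marker SOX10, NANOG and 3 blood markers were at 0 and GFAP had 1 count in all. All 5 fibroblast and mesenchymal markers were detected, summing to 160.3 to 239.7 CPM (control) and 174.5 to 315.0 CPM (knockdown). Their part in the results below was not tested.

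Ribosomal protein genes took 2.85%, 2.47% and 2.54% of all counts in the control libraries, by number, against 3.27%, 2.66% and 2.94% in the knockdown libraries. The knockdown libraries were higher within each library number, but the groups overlapped, since control library 1 lay above knockdown library 2. The mean share was 2.62 ± 0.202% in control and 2.96 ± 0.308% in knockdown (SD, n = 3 each). In bulk samples a change in the RNA of each cell and a change in the mix of cells cannot be told apart.

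The members varied together from library to library. Knockdown library 1 held the highest value of the 6 libraries for 76 of the 79 members tested, and control library 2 the lowest value for 49. Control library 1 exceeded control library 2 in 78 of 79 members, with a median log2 difference of 0.24, and control library 3 in all 79, with a median of 0.20. Knockdown library 1 exceeded knockdown library 2 in all 79 (median 0.36) and knockdown library 3 in 77 (median 0.18). Libraries of 1 group could thus differ in this family by as much as the groups did, although control libraries 2 and 3 differed by a median of only -0.05. Between libraries of 1 group the median difference of all genes lay between -0.005 and 0.003. The libraries numbered 1 had the smallest total count of their group, 5496683 and 4962745, and the part of depth in this difference was not tested.

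**Figure D1:**
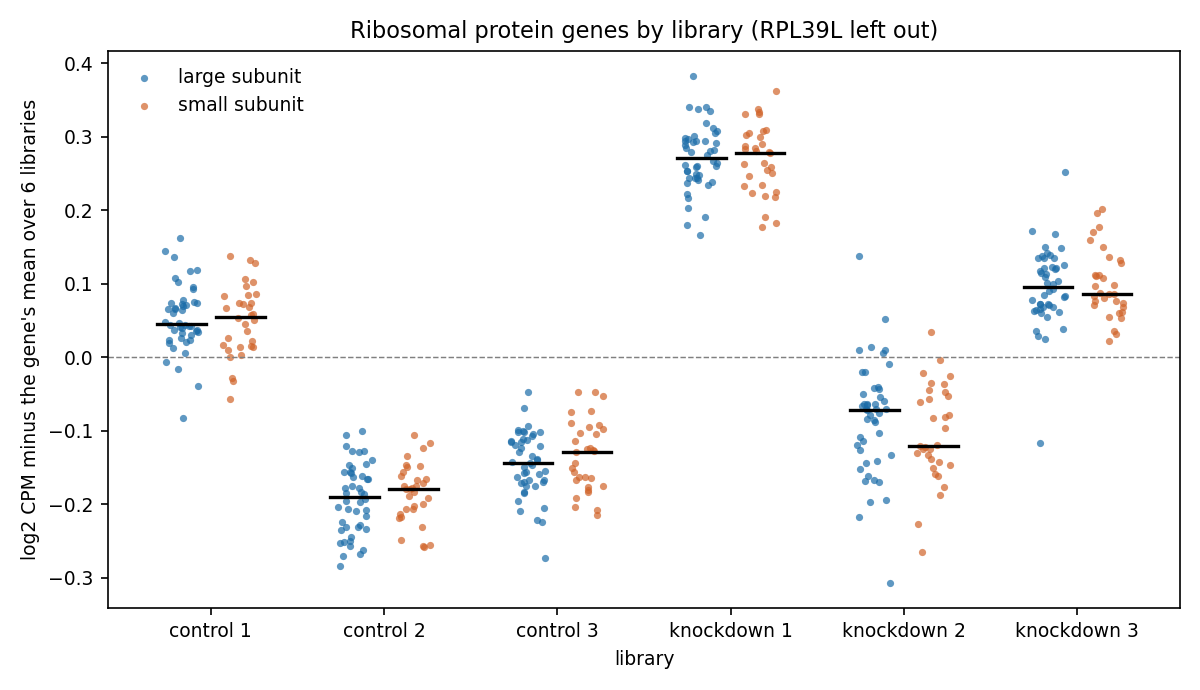
Each point is 1 ribosomal protein gene, placed by its log2 CPM in a library minus its mean over the 6 libraries, for 46 large (blue, RPL39L left out) and 32 small (orange) subunit genes; bars are medians. Both subunits shift together in every library, knockdown library 1 stands highest, and control library 1 lies above knockdown library 2.

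The comparison of knockdown with control asks whether the knockdown went with a change in these genes, and the answer differed with and without the library number in the model. Of the 81 members, 79 had at least 1 CPM in 3 libraries and were tested with 13523 genes in all. Their median log2 fold change, knockdown over control, was 0.20, where the median of all genes tested was -0.004, and 78 of 79 were above 0 (98.7%, against 49.2% of all genes). In the unpaired edgeR quasi-likelihood test none of the 79 members passed an adjusted p of 0.05, nor did any of the 13523 genes (0%), and the members' adjusted p ran from 0.261 to 0.909. At an unadjusted p under 0.05 the same test gave 3 members, RPL15, RPL34 and RPS19, all higher in knockdown. That is 3.80% of the members, against 6.46% of all genes higher and 14.2% in either direction. Unpaired DESeq2 called none of the 78 members to which it gave an adjusted p (1.09% of 11425 genes), limma voom called none (0% of all genes), and edgeR with no filter on low counts called none (0.0105%). The groups did not overlap in 5 members, RPL15, RPL34, RPS19, RPS23 and RPS27L, with knockdown higher in each (6.33%, against 9.13% of all genes).

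With the library number as a block, 10 members rose and none fell in edgeR's quasi-likelihood test at an adjusted p of 0.05. That is 12.7% of the members, against 4.57% of all genes called higher and 5.25% called lower (9.82% in either direction). The 10 were 8 large subunit genes, RPL34, RPL15, RPL38, RPL11, RPL22, RPL10, RPL31 and RPL18, and 2 small subunit genes, RPS19 and RPS4X. At an unadjusted p under 0.05 the same fit held 58 of 79 members, all higher, beside 13.6% of all genes called higher. By pair, the median member was higher in knockdown by 0.22, 0.10 and 0.24 in pairs 1, 2 and 3. BMI1 itself was lower in knockdown, with log2 differences of -1.09, -2.05 and -1.73 in the same order. Pair 2, with the deepest loss of BMI1, had the smallest member median, and pair 1, with the least loss, did not. Whether the size of the member change follows the depth of knockdown was not tested. All 79 members were above 0 in pair 1 (49.9% of all genes), 65 in pair 2 (48.5%) and 78 in pair 3 (49.7%), and 65 were above 0 in each of the 3 pairs (25% of all genes).

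These counts moved with single libraries and with settings. Without pair 1 the blocked fit called 1 member, RPL34 (4.6% of all genes higher), without pair 3 it called 0 (3.03%), and without pair 2 it called 76 of 79 (8.98%). DESeq2 with the block called 1, RPL15 (2.05% of all genes higher). The blocked edgeR count was 18 with RLE size factors (5.03%), 8 with total counts only (3.82%), 12 with factors from genes outside the family (4.64%), 39 with a trend in transcript length and GC content removed (5.3%) and 0 at an adjusted p of 0.01 (0.0592%). The unpaired member median was 0.11 without knockdown library 1, where 4.93% of all genes and no member were called. It was 0.28 without knockdown library 2, the library that stood apart, and 0.28 without control library 1.

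**Figure D2:**
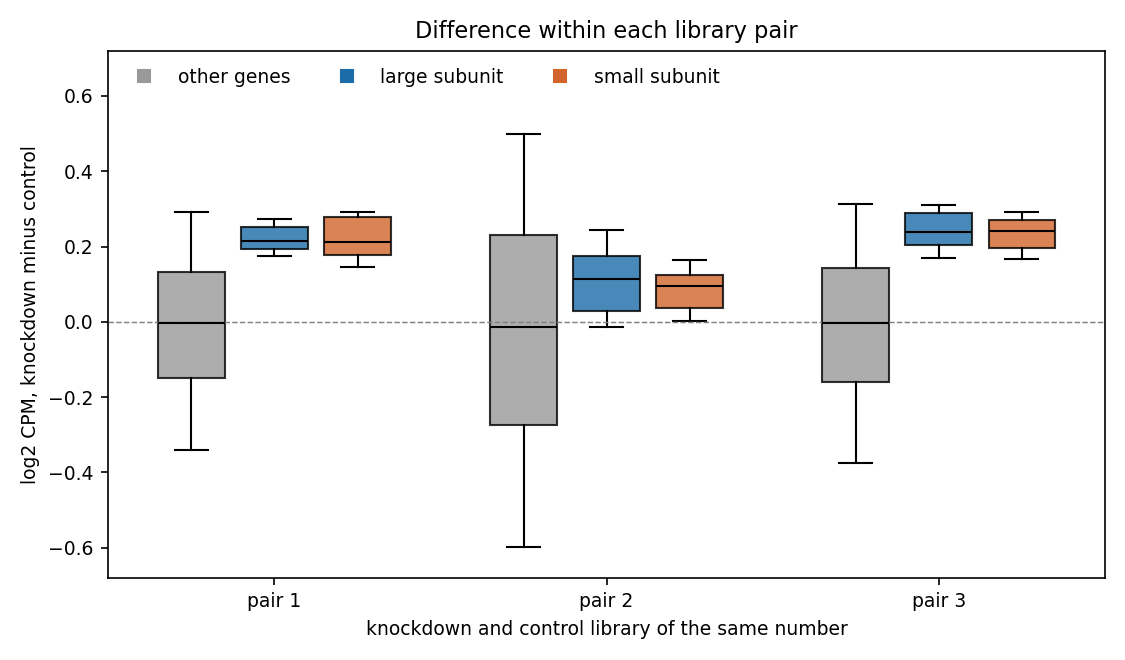
Boxes give the log2 CPM of the knockdown minus that of the control library of the same number, for 13444 other genes (grey), 47 large (blue) and 32 small (orange) subunit genes, with the median as a line, the quartiles as box ends and the 10th and 90th percentiles as whiskers. The ribosomal protein genes form narrow boxes above 0 in pairs 1 and 3 and lie nearer 0 in pair 2, while the other genes centre on 0.

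Among large subunit genes the highest fold change belonged to RPL34, at chr4:108620566-108630412 (GRCh38). RPL34 measured 171.9, 159.3 and 159.1 CPM across control libraries 1 to 3, against 204.5, 188.8 and 217.0 CPM across the knockdown libraries. All 3 knockdown libraries lay above all 3 control libraries, and the blocked log2 fold change was 0.32 (SE 0.0689, 1.25-fold, edgeR adjusted p 0.0290, and 0.261 unpaired). RPL15, a large subunit gene mutated in some patients with Diamond-Blackfan anaemia, a disorder of ribosome production, lies at chr3:23916545-23924374. RPL15 measured 578.6, 491.0 and 518.0 CPM across the control libraries, against 695.4, 643.7 and 607.8 CPM across the knockdown libraries, again with no overlap. Its blocked log2 fold change was 0.30 (SE 0.0656, edgeR adjusted p 0.0303, and 0.294 unpaired). The largest pair difference of RPL15 was that of pair 2, at 0.39, beside 0.27 and 0.23 in pairs 1 and 3.

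The other 6 large subunit genes that rose in the blocked fit had smaller folds and overlapping groups. RPL38, known from the mouse tail-short mutant for its role in axial patterning, measured 149.3, 120.1 and 133.2 CPM across the control libraries, against 181.1, 137.6 and 164.3 CPM across the knockdown libraries (1.20-fold). RPL11, which binds MDM2 when it is not in a ribosome, measured 331.5, 270.9 and 298.3 CPM against 394.7, 329.2 and 345.8 CPM (1.19-fold). In both genes knockdown library 2 was the lowest of its group and lay below control library 1. RPL10, an X-linked gene whose protein sits near the catalytic centre of the large subunit, had means of 401.6 ± 39.2 CPM (control) and 475.2 ± 50.3 CPM (knockdown), and RPL22, an RNA-binding protein, of 255.2 ± 27.0 and 301.5 ± 23.8 CPM (SD, n = 3 each). RPL31 and RPL18, both proteins of the large subunit, were 1.17-fold higher each. Over the 10 members that rose, adjusted p ran from 0.0290 to 0.0482 with the block and from 0.261 to 0.428 without it in edgeR's quasi-likelihood test.

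Among small subunit genes RPS19, the gene most often mutated in Diamond-Blackfan anaemia, at chr19:41859918-41872926, had the highest fold change. RPS19 measured 433.5, 359.2 and 380.1 CPM across the control libraries, against 530.8, 439.6 and 454.0 CPM across the knockdown libraries. The groups of RPS19 did not overlap, though its lowest knockdown library lay just above control library 1, and the blocked log2 fold change was 0.28 (SE 0.061, 1.21-fold, edgeR adjusted p 0.0292, and 0.326 unpaired). RPS4X, encoded on the X chromosome at chrX:72255679-72277300, measured 526.0, 438.0 and 467.2 CPM against 644.5, 511.6 and 561.4 CPM. Knockdown library 2 of RPS4X lay below control library 1, so its groups overlapped, and its fold was 1.20 (edgeR adjusted p 0.0358 with the block). Next by unpaired log2 fold change (0.26 and 0.25) were RPS10 and RPS24, both linked to Diamond-Blackfan anaemia, with blocked log2 fold changes of 0.26 and 0.24 and edgeR adjusted p of 0.0538 and 0.0759.

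**Figure D3:**
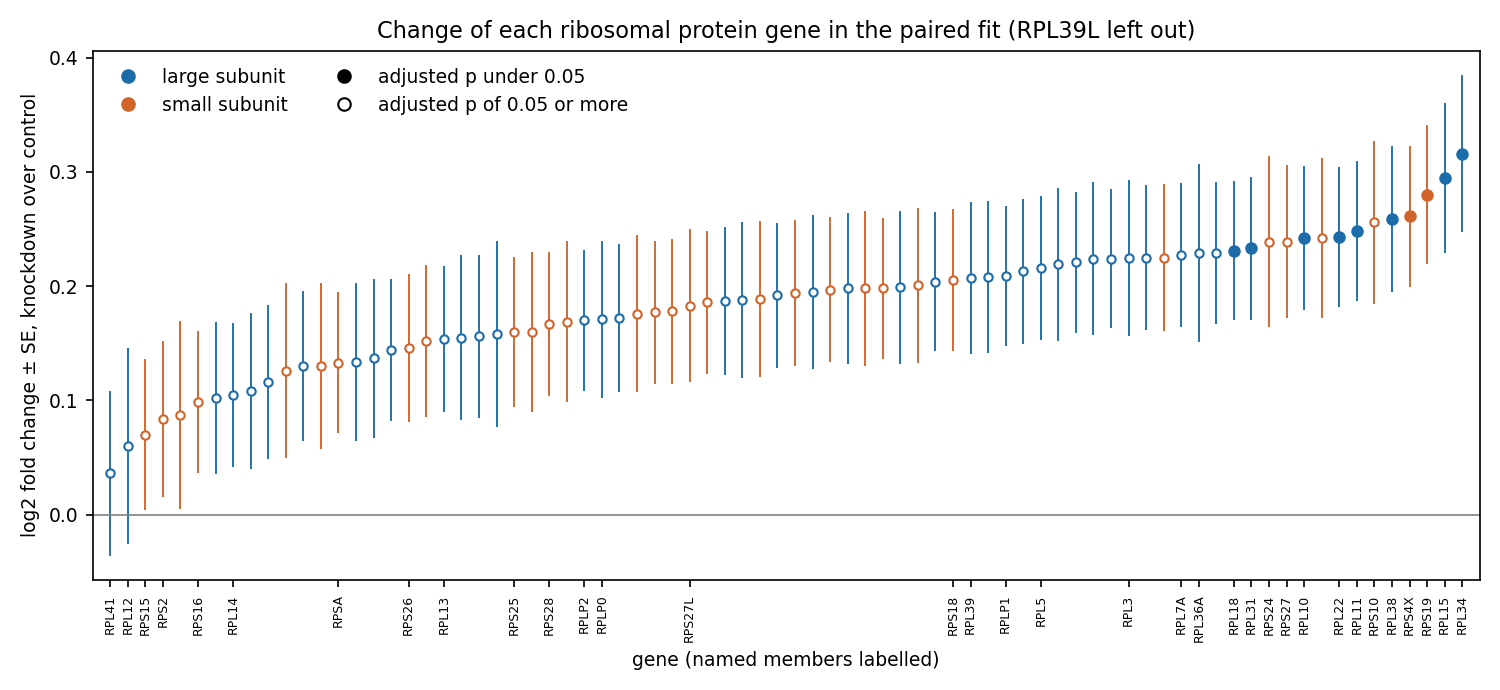
Log2 fold change of 78 tested ribosomal protein genes (RPL39L left out) in the edgeR fit with the library number as a block, ordered by value, with bars of 1 SE; blue marks large and orange small subunit genes, and filled points have an adjusted p under 0.05. Values run from 0.04 (RPL41) to 0.32 (RPL34) with each step between neighbours smaller than their SE, and both subunits are mixed along the order; only named genes carry a label.

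At the other end of the order the groups could not be distinguished. RPL41, whose product is a very short peptide of the large subunit, measured 175.8, 148.2 and 148.2 CPM across the control libraries, against 201.4, 141.3 and 146.6 CPM across the knockdown libraries, with an unpaired log2 fold change of 0.05 (SE 0.147). Its single high knockdown library was number 1, and no other member was below 0 in pair 3. RPL12, which forms part of the base of the stalk, measured 302.8, 259.0 and 259.7 CPM against 346.0, 225.3 and 295.3 CPM. Knockdown libraries of RPL12 held both the highest and the lowest of the 6 values, and its unpaired log2 fold change was 0.08 (SE 0.154). RPL14 was at 0.11.

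In the small subunit RPS15 (0.07), RPS2 (0.09) and RPS16 (0.10) were among the 4 members of lowest unpaired log2 fold change. RPS15 measured 255.9, 212.8 and 217.5 CPM against 279.6, 206.6 and 237.1 CPM, and its knockdown range enclosed its control range. RPS2 had means of 666.0 ± 59.3 CPM (control) and 708.5 ± 96.5 CPM (knockdown) (SD, n = 3 each). RPL41, RPL12, RPS15 and RPS2 turned below 0 without knockdown library 1, with RPL41 at -0.12 and RPS2 at -0.005. These 4 were among the 14 members below 0 in pair 2, where RPL12 was at -0.20.

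The stalk of the large subunit, which recruits translation factors, is built from RPLP0 with RPLP1 and RPLP2. RPLP0 measured 780.8, 644.6 and 697.5 CPM across the control libraries, against 933.8, 666.9 and 804.6 CPM across the knockdown libraries. RPLP1 had means of 335.1 ± 42.8 CPM (control) and 387.3 ± 50.6 CPM (knockdown), and RPLP2 of 183.8 ± 19.9 and 206.9 ± 23.3 CPM (SD, n = 3 each). The groups overlapped in all 3, and their blocked log2 fold changes of 0.17, 0.21 and 0.17 did not pass (edgeR adjusted p 0.145, 0.0610 and 0.110). RPSA, also known as the non-integrin laminin receptor, had means of 504.3 ± 64.4 and 554.0 ± 81.0 CPM and an unpaired log2 fold change of 0.14 (SE 0.138). RPL5, the partner of RPL11 in the particle that binds MDM2, measured 611.1, 509.0 and 540.0 CPM against 712.6, 570.7 and 646.9 CPM, with a blocked log2 fold change of 0.22 (edgeR adjusted p 0.0605). RPL5 and RPL11 thus lay on different sides of the threshold, and the difference between them was not tested. MDM2 (0.06), named outside the rule for that link, did not pass.

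Of the paralogs whose symbols end in L, RPL3L, RPL10L and RPL39L were low or undetected, whereas RPS27L was not. RPL3L, a paralog of RPL3 found in heart and skeletal muscle, and RPL10L, a testis paralog of RPL10, had 0 counts in all 6 libraries, which allows at most 0.0738 CPM over the 40662511 counts (3 counts, counting error only). RPL3 itself had means of 843.6 ± 72.5 CPM (control) and 989.6 ± 130.0 CPM (knockdown). RPL39L, a paralog of RPL39 best known from testis, had 13, 27 and 15 counts across the control libraries, against 15, 12 and 26 across the knockdown libraries. Its unpaired log2 fold change of -0.25 (SE 0.374) was the only one below 0 and turned to 0.11 without control library 2. Per kb of transcript RPL39L was at 4.45 ± 1.68 CPM in control, beside 352.5 ± 32.1 for RPL39 (SD, n = 3 each). RPS27L, a paralog of RPS27, measured 140.8, 136.1 and 135.4 CPM across the control libraries, against 171.2, 146.2 and 152.1 CPM across the knockdown libraries. The groups of RPS27L did not overlap, yet it did not pass (blocked log2 fold change 0.18, edgeR adjusted p 0.113, and 0.396 unpaired), and RPS27 was at 0.24 (edgeR adjusted p 0.0556 with the block).

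Large and small subunit genes were compared in each library and each pair. The ratio of large to small subunit counts was 1.56 in each control library and 1.56, 1.59 and 1.57 in knockdown libraries 1, 2 and 3. The median unpaired log2 fold change was 0.20 over 47 large and 0.18 over 32 small subunit genes. By pair, the medians differed by 0.003, 0.017 and -0.002 (large minus small, pairs 1 to 3), while the medians themselves ranged from 0.10 to 0.24 between pairs. The SD of the pair differences over members was 0.053, 0.178 and 0.069 in pairs 1, 2 and 3. Over the 2927 other genes with a mean of at least 100 CPM it was 0.140, 0.356 and 0.190, and over all genes, down to low counts, 0.327, 0.483 and 0.318. Pair 2 was the widest, and RPL39L was at -1.22 in it.

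Levels per transcript length were compared within each subunit. For 41 large subunit genes, without RPL39L, the control mean ran from 265.8 (RPL18) to 686.1 (RPL13) CPM per kb of transcript, with a median of 446.1, a range of 2.58-fold. For 30 small subunit genes it ran from 97.9 (RPS28) to 743.2 (RPS19), with a median of 467.6. RPL13 (686.1 ± 61.4), RPL15 (645.3 ± 54.7) and RPL7A (593.5 ± 68.5) headed the large subunit by their mean over all 6 libraries, and RPS19 (743.2 ± 72.9), RPS2 (676.2 ± 60.2) and RPS18 (603.2 ± 63.5) the small one (control mean ± SD, n = 3). At the low end stood RPL18, RPL36A (272.1) and RPLP1 (279.9), and RPS28, RPS26 (218.3) and RPS25 (266.4). No step between neighbours in the large subunit order exceeded both of their SDs, and 3 of 29 did in the small one: RPS28 to RPS26, the widest at 120.4 CPM per kb, RPS26 to RPS25, and RPS4X to RPS6. These orders rest on the shortest GENCODE 29 transcript that encodes the whole protein, which for RPS28 has 1326 bases for a coding part of 207. For RPLP1 it has 1197 bases for a coding part of 342, and for RPL18 1004 bases for 564. The low places of these genes thus depend on the annotated length. RPL22, RPL23A, RPL27A, RPL37, RPL37A, RPS23 and RPS27L, annotated with over 1500 bases for a coding part under 500 bases, were left out.

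Counts of single members carry an uncertainty from copies elsewhere in the genome, since ribosomal protein genes have many processed pseudogenes and reads may be split or dropped between near-identical sequences. The tables list 31 such pseudogene symbols, with a summed level of 179.1 to 193.4 CPM in the control and 172.2 to 197.3 CPM in the knockdown libraries, while the members summed to 24340 to 28810 and 26190 to 33630 CPM. Of the 10 pseudogenes tested none passed in the unpaired edgeR fit (0% of all genes) or in the blocked one (9.82%). Their unpaired median was -0.025. The read-through RPL36A-HNRNPH2 shares exons with RPL36A and had means of 72.2 ± 1.69 CPM (control) and 86.0 ± 5.30 CPM (knockdown), beside 116.7 ± 14.3 and 136.6 ± 15.6 CPM for RPL36A (SD, n = 3 each). RPL17-C18orf32 and RPS10-NUDT3 were at 0.

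The mitochondrial ribosome is made of different proteins, also encoded by nuclear genes. Of 77 mitochondrial ribosomal protein genes tested, none rose and 4 fell in the blocked edgeR fit (4.57% of all genes rose and 5.25% fell). In the unpaired fit 18 of 77 were above 0, against 49.2% of all genes. Their unpaired median was -0.09, with pair medians of -0.003, -0.19 and -0.08. Leaving out knockdown library 1 gave a median of -0.14, and leaving out knockdown library 2 gave -0.02. MRPS34 had means of 80.6 ± 2.75 CPM (control) and 57.0 ± 11.3 CPM (knockdown) (SD, n = 3 each), with a blocked log2 fold change of -0.52 (edgeR adjusted p 0.0230). MRPS7 (-0.54), MRPL20 (-0.35) and MRPL3 (-0.38) were the other genes that fell.

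Cytosolic ribosomal genes and paralogs that the name pattern missed had an unpaired median of 0.08 over 8 genes, which was 0.02, 0.18 and 0.04 without knockdown library 1, 2 and 3 in turn. GNB2L1, the small subunit scaffold RACK1, had a blocked log2 fold change of 0.18 and did not pass. RSL24D1, a ribosome assembly factor related to RPL24, fell by 0.39 on the log2 scale in the blocked fit (edgeR adjusted p 0.0441) and was the only one of the 8 called (5.25% of all genes fell).

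Translation and other genes known for mRNAs with a TOP tract had an unpaired median of 0.09 over 17 genes. Of these, 16 were above 0, against 49.2% of all genes. EEF2, the factor that moves the ribosome along the mRNA, rose in the blocked fit, with means of 1450 ± 152 CPM (control) and 1748 ± 191 CPM (knockdown) (SD, n = 3 each; log2 fold change 0.27, edgeR adjusted p 0.0402). It was the only one of the 17 called (4.57% of all genes rose). TPT1 (0.23) and EIF3F (0.22), a subunit of initiation factor eIF3, were next, with edgeR adjusted p of 0.0532 and 0.0611 with the block. The pair medians of the list were 0.16, -0.02 and 0.10, and the unpaired median was -0.009 without knockdown library 1, 0.19 without knockdown library 2, 0.16 without control library 1 and 0.05 without control library 2.

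Of 7 host genes of small nucleolar RNAs, 1 rose and 1 fell in the blocked fit, where 4.57% of all genes rose and 5.25% fell. GAS5 rose, with means of 129.3 ± 6.71 CPM (control) and 157.6 ± 6.15 CPM (knockdown), and SNHG1 fell, with 61.3 ± 1.16 and 47.3 ± 2.36 CPM (SD, n = 3 each). Their blocked log2 fold changes were 0.29 and -0.37 (edgeR adjusted p 0.0377 and 0.0280). SNHG5 was at 0.26 (edgeR adjusted p 0.0557 with the block), and the unpaired median of the 7 was 0.26, or 0.09 without knockdown library 3.

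Among 15 regulators of ribosomal protein synthesis and its surveillance, 1 fell and none rose in the blocked fit (5.25% and 4.57% of all genes). Their unpaired median was 0.03, and 0.06 without control library 1, 0.01 without control library 2 and 0.06 without knockdown library 2 or 3. LARP1, which binds TOP mRNAs, had means of 333.8 ± 21.7 CPM (control) and 245.3 ± 54.3 CPM (knockdown) (SD, n = 3 each), a blocked log2 fold change of -0.47 (SE 0.0945, edgeR adjusted p 0.0249, and 0.281 unpaired). EIF4EBP1, an mTOR-controlled repressor of cap-dependent initiation, was at -0.44 and TSC1, an inhibitor of mTOR signalling, at 0.17 (edgeR adjusted p 0.0561 and 0.135 with the block). All these lists come from the same 6 libraries as the ribosomal genes.

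**Figure D4:**
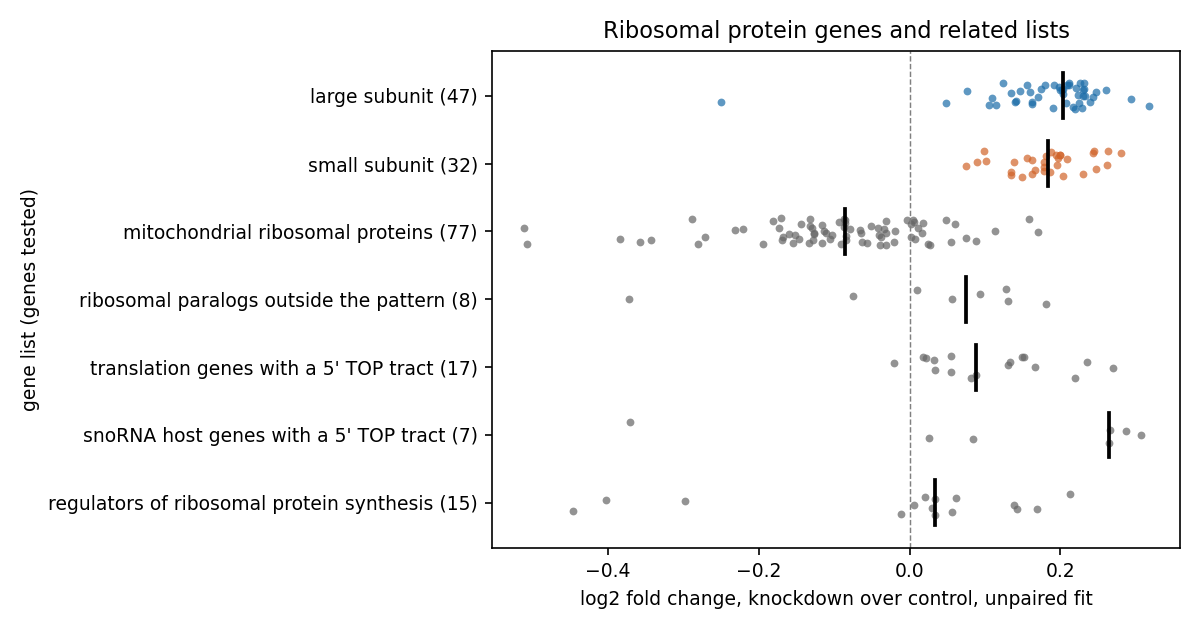
Each point is the unpaired log2 fold change of 1 gene, knockdown over control, by list, with the median as a bar and the number of genes tested in brackets. Ribosomal protein genes cluster around 0.20 and 0.18, mitochondrial ribosomal protein genes centre at -0.09, and the lone large subunit point at -0.25 is RPL39L.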

How the data were processed

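Directional libraries were made from total RNA of AF22 cells, per the labels' protocols. The authors deposited 1 table of raw read counts per library, as its whole numbers with unequal totals show. Trim Galore 0.6.6, STAR 2.7.10a, bedtools and hg38 stand in the submitters' processing notes, and for counting, the program, annotation and strandedness were not given in the sources used here.

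Genes with at least 1 CPM in 3 libraries (13523) were scaled with TMM factors and tested in edgeR 4.0.16 (R 4.3.3) with the quasi-likelihood test, group as the only term, and Benjamini-Hochberg adjustment over all genes at 0.05. Log2 CPM used a prior count of 2, and an SE is the size of the fold change over the square root of F. Both groups are numbered 1 to 3, and the labels do not say what a number shares. Deviations from group means correlated between same-numbered libraries at 0.512, 0.428 and 0.474 across genes, above the bound of 0.1, so a fit with the number as a block is given beside; the pairing thus comes from the data. Chi-square per gene was at least 3.19 within groups. By this measure the closest libraries lay across groups, control library 1 and knockdown library 1, at 2.74. It uses raw counts and grows with depth, and these libraries had the smallest totals, 5496683 and 4962745. By the SD of log2 differences over all genes, pair 3 (0.318) was closer than pair 1 (0.327). No library was counted as a duplicate.

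Members, lists and tests were chosen with earlier results of these data known. Named were members called in either fit, in each subunit the 4 highest and 4 lowest fold changes and 3 highest and 3 lowest levels per length, the stalk genes, RPSA, RPL5, RPL11, the paralogs with their partners, members under the filter, and up to 3 genes per related list. RPS23, RPS6, MRPL3, MDM2, the pseudogenes and the read-throughs fell outside this rule and were named after their values were seen. A few genes are not reported here. Lengths and positions came from GENCODE 29 (GRCh38), start windows from RefSeq. Alternatives used DESeq2 1.42.0 and limma 3.58.1. On counts simulated once for 13403 genes, the unpaired fit recovered 17.3% of 98 genes changed by 0.6 log2 units and the blocked fit 78.6%. False calls were 19 of 195 in the blocked fit, above the nominal rate, and 0 of 107 in the unpaired fit. The simulation held number effects and the blocked spread, so this gain is built in. No change below 0.6 was simulated, and the members had a median of 0.20, so these rates do not describe recovery of changes of their size.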

Additional observations from a re-analysis of the deposited data

How the results depend on the processing

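Without the block, other scaling, other filters, limma voom, DESeq2 and removal of the length and GC trend left 0 members called, with a member median of 0.179 to 0.220. Over all genes the count of 0 became 2 with no filter on low counts and 125 with DESeq2, and BMI1 log2 fold change passed in these fits, at -1.61 and -1.59. With the replicate block the counts were 10 members and 1328 genes (BMI1 -1.64). They were 18 and 1375 with RLE size factors (BMI1 -1.63), 8 and 1328 with total counts only (-1.65), 12 and 1337 with TMM factors from genes outside the family (-1.63), 1 and 584 with DESeq2 (-1.63), and 39 and 1466 with the length and GC trend removed (-1.63). At an adjusted p of 0.01 the block gave 0 members and 12 genes. The 10 members were all among the 18, the 12 and the 39. The cause of these shifts was not tested.

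Leaving out each pair under the block gave 0 to 76 members and 965 to 2264 genes (1369 without pair 1), with BMI1 from -1.89 to -1.46 (-1.58 without pair 3). Leaving out each library without the block gave 0 members each time and 0 to 661 genes (661 without knockdown library 1), with BMI1 from -1.87 to -1.44. The member median then ran from 0.108 to 0.283, the large subunit median from 0.114 to 0.290, the small subunit median from 0.0981 to 0.270, and their difference from 0.0118 to 0.0324. Unpaired, RPL41 ran from -0.121 to 0.139, RPL12 from -0.0659 to 0.226, RPS15 from -0.0368 to 0.174, RPS2 from -0.00525 to 0.185, the median of the TOP translation list from -0.00858 to 0.187 and RPL39L from -0.434 to 0.109. Under the block RPL41 ran from -0.0366 to 0.0821, RPL12 from -0.00417 to 0.187 (-0.000267 without pair 1) and RPL39L from -0.576 to 0.346. With the 10 most abundant other genes left out, the members' share of counts was 2.67% in control and 3.01% in knockdown.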
